A study of Mus musculus with 6 samples.

Results

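B cell genes were followed through 6 libraries of mouse myeloid cells, as 9 of the 49016 gene symbols of the count table: Cd79a, Cd79b, Ms4a1, Ighm, Ighd, Igkc, Pax5, Ebf1 and Fcmr. The members were chosen by symbol, and all 9 were in the table. The libraries came from monocytes, from intravascular macrophages (IVM, macrophages inside blood vessels) and from microglia, which are brain macrophages. Each cell type was labelled as BRAFV600E mutant (VE), an allele whose BRAF kinase signals constantly, or as wild type (WT). The 6 groups, VE and WT monocytes, VE and WT IVM, and VE and WT microglia, held 1 library each. Neither the promoter or Cre line behind the mutation, nor the age and number of the mice, nor the way the cells were isolated is stated in the labels.

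A B cell reads antigen through a membrane immunoglobulin, made of heavy chains (Ighm for IgM, Ighd for IgD) and light chains (Igkc for kappa), which signals through the paired chains Cd79a and Cd79b. The transcription factors Ebf1 and Pax5 commit precursors to the lineage. Ms4a1 encodes the surface protein CD20 and Fcmr the receptor for the constant part of IgM. A complete heavy chain message joins a V, a D and a J segment to the constant gene, while an unrearranged heavy chain locus can also be transcribed from near its J segments, without a V segment and without a protein product. Microglia and other myeloid cells are known to express some genes of B cell receptor signalling.

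The J segments of the heavy chain locus are shown because reads on them set the libraries apart below. They lie on chromosome 12 of build GRCm38 (mm10), on the minus strand, upstream of Ighm and Ighd, and are given as annotated in GENCODE M21. Capitals mark TGGGG and GG with any 4 bases between them, the letters that code for the conserved tryptophan and glycines of a J segment, found once in each on the strand shown.
Ighj1, chr12:113429781-113429833: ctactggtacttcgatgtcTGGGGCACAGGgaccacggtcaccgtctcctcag
Ighj2, chr12:113429468-113429515: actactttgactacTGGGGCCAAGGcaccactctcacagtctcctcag
Ighj3, chr12:113429085-113429132: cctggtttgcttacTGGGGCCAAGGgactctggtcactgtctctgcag
Ighj4, chr12:113428514-113428567: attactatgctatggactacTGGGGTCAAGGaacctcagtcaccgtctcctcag

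Total counts ran from 25787476 to 65519506 per library. Levels are CPM, a library's counts rescaled to a common total with TMM factors, unless TPM, which is also divided by gene length, is named. Microglia markers summed to 52681 and 25061 CPM in VE and WT microglia, classical monocyte markers to 9919 and 6011.5 CPM in VE and WT monocytes, and patrolling monocyte markers to 2198 and 2023 CPM in VE and WT IVM. Microglia markers also summed to 7209 and 1691 CPM in VE and WT IVM. Genes of other blood cells stood apart in several libraries. The sum over 14 markers of T and NK cells was 3.61 CPM in VE IVM, with Cd8a and Ncr1 at 0 counts, and 5922 CPM in WT IVM, where all 14 reached 10 CPM. It was 272 and 55.4 CPM in VE and WT monocytes. WT IVM also held the fewest genes with a count, 15121, against 19063 to 23214 in the other libraries. Neutrophil markers summed to 56933 and 1976 CPM in VE and WT monocytes, erythroid markers to 10484 and 217 CPM, and platelet markers to 1728 and 22.1 CPM. In VE and WT IVM, neutrophil markers summed to 696 and 131 CPM and platelet markers to 44.4 and 1.80 CPM. Of these platelet sums, Pf4 held 39.4 and 0.300 CPM, and no other platelet marker reached 10 CPM in IVM. Gp9 stood at 4.02 CPM in VE and 1.23 CPM in WT IVM, and Gp1ba at 0.586 CPM and 0 counts. For Ppbp and Itga2b the 95% counting interval of the ratio included equality in IVM, and Gp1bb had 0 counts in both IVM libraries. Markers of plasmacytoid dendritic cells, which share several genes with B cells, summed to 94.7 to 174 CPM over the 6 libraries. Tcf4 alone stood at 35.4 to 162 CPM, and single genes of this list differed more than the sum. Ly6d had 50.4 CPM in VE and 0.551 CPM in WT monocytes, and Ccr9 had 0.223 CPM in VE and 17.9 CPM in WT IVM. Whether reads come from a small number of B cells or from little RNA in many cells cannot be told apart in bulk libraries, and counts per gene do not show the BRAF allele, so the genotype labels were not checked. In all 3 cell types, with 1 library of each genotype, the comparison of VE with WT has no replicate check and no p-value.

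**Figure D1:**
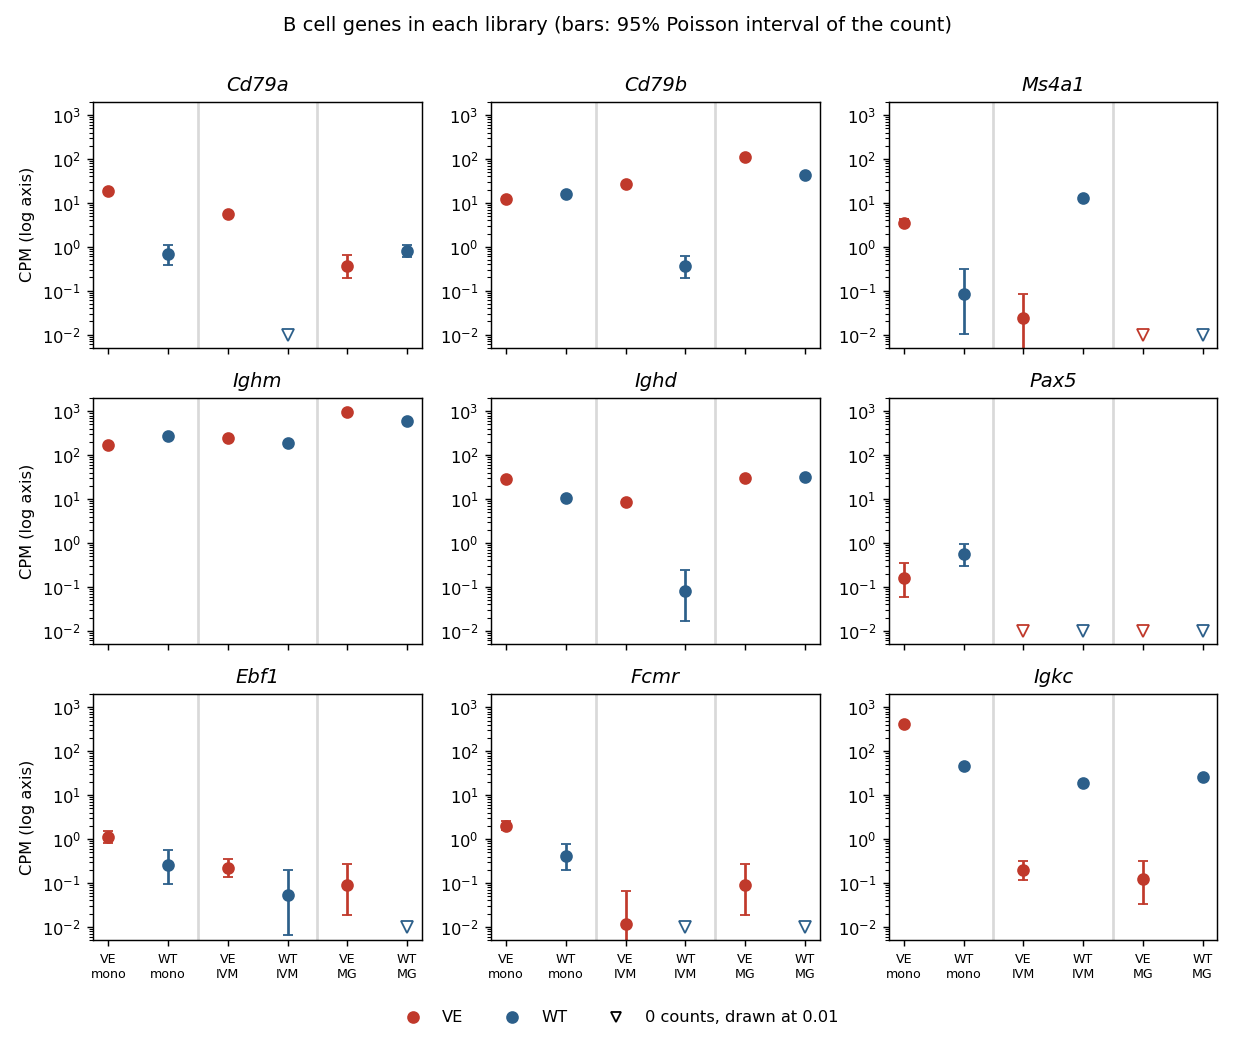
Level of each B cell gene in the 6 libraries, in CPM on a log axis, with VE in red left of WT in blue (mono, monocytes; MG, microglia). Points are single libraries, bars are 95% Poisson intervals of the count, and open triangles mark 0 counts. Ighm lies above 100 CPM in every library, while Igkc spans 0.123 to 416 CPM and Pax5 has 0 counts outside monocytes.

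Ighm, the IgM heavy chain constant gene (ENSMUSG00000076617.9, chromosome 12, 113418558 to 113422730, minus strand), was read above 100 CPM in each of the 6 libraries. Its level was 946 CPM in VE microglia and 599 CPM in WT microglia. The other values were 240.2 CPM in VE IVM, 192 CPM in WT IVM, 166 CPM in VE monocytes and 275 CPM in WT monocytes. Both microglia libraries lay above all 4 others. The VE over WT ratio was 1.58-fold higher in microglia (95% counting interval 1.55 to 1.61), 1.25-fold higher in IVM (1.22 to 1.28) and 1.65-fold lower in monocytes (1.60 to 1.71), all within 4-fold.

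Ighd, the IgD constant gene that lies next to Ighm (chromosome 12, 113406604 to 113416324, minus strand), was read at 30.3 CPM in VE microglia and 31.0 CPM in WT microglia. It stood at 8.63 CPM in VE IVM and 0.0819 CPM, 3 counts, in WT IVM. Monocytes had 28.7 CPM in the VE and 10.5 CPM in the WT library. The counting intervals of VE microglia, WT microglia and VE monocytes overlap, so these 3 are not ordered. Ighd was 105.4-fold higher in VE than WT IVM (35.9 to 512, on 3 WT counts), 2.72-fold higher in VE monocytes (2.37 to 3.14) and 1.03-fold lower in VE microglia (0.945 to 1.11, an interval that includes equality). On the TPM scale, Ighm exceeded Ighd 31.5 times in VE and 19.4 times in WT microglia, 28.0 times in VE and 2362 times in WT IVM, and 5.83 times in VE and 26.3 times in WT monocytes.

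Igkc, the kappa light chain constant gene (ENSMUSG00000076609.2, chromosome 6, 70726435 to 70726966, plus strand), did not follow Ighm. VE monocytes had 416 CPM and WT monocytes 47.6 CPM. VE IVM had 0.199 CPM, 17 counts, against 19.3 CPM in WT IVM, and VE microglia had 0.123 CPM, 4 counts, against 26.6 CPM in WT microglia. Igkc was thus 8.75-fold higher in VE monocytes (8.24 to 9.31), the library where the neutrophil, erythroid and T cell markers above were also higher than in WT. Their part in the value was not tested. It was 96.9-fold lower in VE IVM (60.1 to 167) and 216-fold lower in VE microglia (84.3 to 796).

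Within each library, heavy and light chain reads stood in different ratios. Of the reads on Igkc and Ighm together, Igkc took 71.5% in VE monocytes (Wilson 95% interval 70.9 to 72.1%) and 14.7% in WT monocytes (14.0 to 15.6%). It took 0.0829% in VE IVM (0.0517 to 0.133%) and 9.13% in WT IVM (8.51 to 9.79%). In microglia the share was 0.013% in the VE library (0.00505 to 0.0334%) and 4.25% in the WT library (4.02 to 4.49%). VE IVM and VE microglia, the libraries with almost no light chain reads, held 20503 and 30805 reads of Ighm. Intervals here and below cover counting error only, since reads amplified by PCR are not independent molecules.

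Reads on lambda light chain constant genes were also near 0 in VE IVM and VE microglia, and in WT IVM as well. The constant genes Iglc1, Iglc2 and Iglc3, near-identical copies among which reads may be divided with error, had 13038 counts in VE and 645 in WT monocytes. They had 0 counts in VE IVM and 5 in WT IVM, and 0 counts in VE microglia and 283 in WT microglia. Of all light chain constant reads, lambda took 45.3% in VE monocytes (44.7 to 45.9%), 36.5% in WT monocytes (34.3 to 38.7%), 0.702% in WT IVM (0.3 to 1.63%) and 18.9% in WT microglia (17.0 to 20.9%). Lambda V segments had 0 counts in VE IVM and VE microglia, but 37 counts, 1.01 CPM, in WT IVM. They had 25 counts, 1.06 CPM, in WT monocytes, 1311 counts in VE monocytes and 134 in WT microglia.

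Reads on the heavy chain J segments were most numerous in both microglia libraries and VE IVM. The 4 J segments printed above had 436 counts in VE and 1340 in WT microglia, 1062 in VE and 1 in WT IVM, and 27 in VE and 21 in WT monocytes. The 183 heavy chain V segments of the table had 6 counts in VE and 438 in WT microglia, 63 in VE and 131 in WT IVM, and 283 in VE and 48 in WT monocytes. V segments therefore took 1.36% of V and J reads in VE microglia (0.624 to 2.93%) and 5.6% in VE IVM (4.4 to 7.1%), against 24.6% in WT microglia (22.7 to 26.7%) and 99.2% in WT IVM (95.8 to 99.9%). In monocytes the share was 91.3% in the VE library (87.6 to 93.9%) and 69.6% in the WT library (57.9 to 79.2%).

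All 4 J segments were read in VE IVM, with 416 counts on Ighj1, 225 on Ighj2, 217 on Ighj3 and 204 on Ighj4. WT microglia had 622, 287, 179 and 252 counts on the same segments in that order. VE microglia had 371 counts on Ighj1 and 33, 19 and 13 on the others, so that Ighj1 took 85.1% (81.4 to 88.1%) there, 46.4% in WT microglia (43.8 to 49.1%) and 39.2% in VE IVM (36.3 to 42.1%). The D segment Ighd4-1 had 7 counts in VE and 9 in WT microglia, 4 in VE IVM, 1 in VE monocytes and 0 in WT IVM and WT monocytes.

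**Figure D2:**
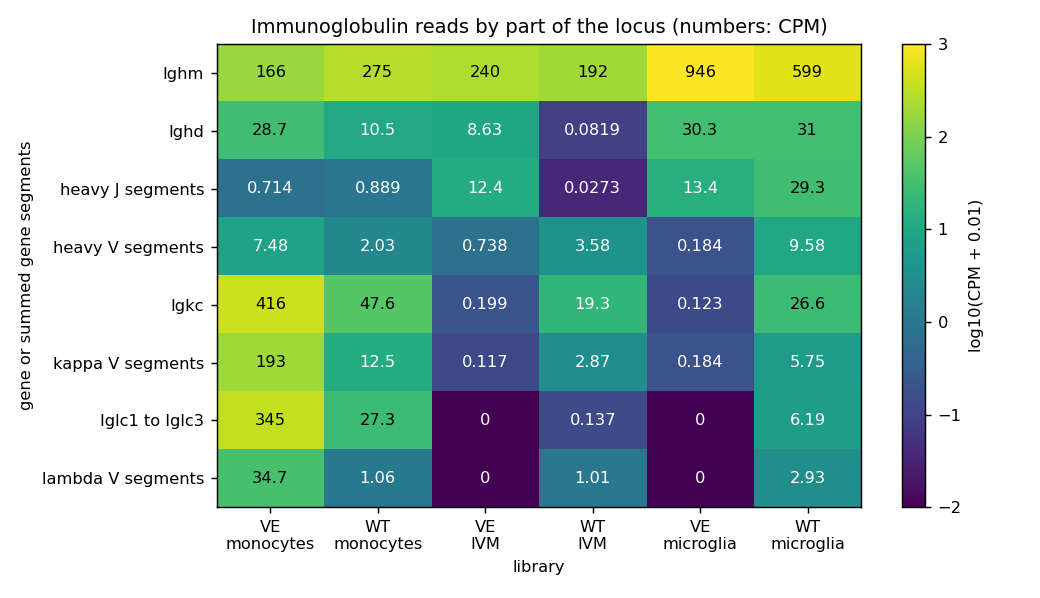
Immunoglobulin reads by part of the loci (rows) in each library (columns, VE left of WT), with CPM printed in each cell and colour giving log10(CPM + 0.01). VE IVM and VE microglia have Ighm, Ighd and J segment reads with light chain genes and V segments below 1 CPM; VE monocytes have the highest light chain values.

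V segments are counted as a family, since its members are alike and reads may be assigned to the wrong copy. In VE monocytes 73 of 160 kappa V segments had a count, 7298 counts in all. Igkv6-15, the most abundant, took 14.3% of them (13.5 to 15.1%). In WT monocytes 11 of 160 had a count, and the same segment took 89.8% of 294 counts (85.8 to 92.8%). In WT microglia 9 segments shared 263 kappa V counts, led by Igkv14-100 at 36.1% (30.6 to 42.1%). VE IVM and VE microglia had 10 and 6 counts, and WT IVM had 2.87 CPM on 20 segments, led by Igkv2-137 at 41.0% (32.0 to 50.5%). Among heavy chain V segments, 35 of 183 had a count in VE monocytes and 7 in WT monocytes. In WT IVM a single segment, Ighv1-15, took 87.8% of the heavy V counts (81.1 to 92.3%), and in WT microglia Ighv1-64 took 42.9% (38.4 to 47.6%).

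The signalling chains of the receptor differed from each other across the libraries. Cd79b (ENSMUSG00000040592.11, chromosome 11, 106311341 to 106314762, minus strand) stood at 109 CPM in VE and 42.5 CPM in WT microglia, 26.3 CPM in VE and 0.355 CPM in WT IVM, and 12.4 CPM in VE and 15.8 CPM in WT monocytes. Its highest values were in microglia. Cd79a (ENSMUSG00000003379.7, chromosome 7, 24897381 to 24902197, plus strand) was highest in VE monocytes at 18.7 CPM, against 0.678 CPM in WT monocytes. It had 5.49 CPM in VE IVM and 0 counts in WT IVM, and 0.369 CPM in VE and 0.809 CPM in WT microglia.

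Cd79a took 60.3% of the reads on both chains in VE monocytes (57.4 to 63.0%) and 4.11% in WT monocytes (2.55 to 6.58%). The share was 17.3% in VE IVM (15.9 to 18.7%), 0.338% in VE microglia (0.193 to 0.59%) and 1.87% in WT microglia (1.36 to 2.57%). In WT IVM it was 0 of 13 reads, which allows a share of up to 23.1%. Per length, Cd79a had 10.8 and Cd79b 7.23 TPM in VE monocytes, whereas in VE microglia Cd79a had 0.46 and Cd79b 138 TPM.

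Between genotypes, Cd79a was 27.6-fold higher in VE monocytes (16.9 to 48.6), at least 67.1-fold higher in VE IVM against a floor of 3 counts per library, and 2.19-fold lower in VE microglia (1.12 to 4.62). Cd79b was 74.2-fold higher in VE IVM (43.3 to 139), 2.56-fold higher in VE microglia (2.42 to 2.71) and 1.28-fold lower in VE monocytes (1.11 to 1.47). The summed neutrophil and platelet markers above were also higher in VE than WT monocytes and IVM. In IVM the platelet sum was mostly Pf4. Summed microglia markers were higher in VE than WT IVM. The part of these markers in the Cd79a and Cd79b values was not tested.

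Of the 9 members, 4 had a promoter window in the RefSeq table (build GRCm38.p6): Cd79a, Fcmr, Pax5 and Ebf1. The windows of Cd79a and Fcmr are shown because they alone held a match to a motif searched. Each window runs from 250 bases before to 50 bases after the start. Capitals mark matches, on either strand, to the E-box CAGGTG or the ETS core AGGAAGT.
Cd79a, chr7:24897247-24897546, plus strand: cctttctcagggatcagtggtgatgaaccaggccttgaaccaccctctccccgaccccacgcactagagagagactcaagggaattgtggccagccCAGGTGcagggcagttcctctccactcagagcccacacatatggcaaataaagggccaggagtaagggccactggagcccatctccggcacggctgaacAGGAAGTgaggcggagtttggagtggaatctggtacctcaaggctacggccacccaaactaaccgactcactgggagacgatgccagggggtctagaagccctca
Fcmr, chr1:130865527-130865826, plus strand: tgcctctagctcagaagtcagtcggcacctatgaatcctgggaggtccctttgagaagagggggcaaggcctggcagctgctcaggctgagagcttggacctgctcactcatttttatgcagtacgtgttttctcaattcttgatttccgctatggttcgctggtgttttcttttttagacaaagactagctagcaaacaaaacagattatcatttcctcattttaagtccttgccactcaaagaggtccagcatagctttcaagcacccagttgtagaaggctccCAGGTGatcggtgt
The E-box was found in 20.2% of the 32851 promoter windows and the ETS core in 9.35%. Neither had a match in the windows of Pax5 or Ebf1. The EBF palindrome, TCCC and GGGA with any 2 bases between them, in 0.904% of windows, and the octamer ATGCAAAT, in 1.74%, had no match in the windows of Cd79a, Fcmr, Pax5 or Ebf1. None of these motifs overlapped another in the printed windows, and a match of letters is not evidence of binding.

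Ms4a1, which encodes CD20 (ENSMUSG00000024673.9, chromosome 19, 11249675 to 11266241, minus strand), was highest in WT IVM. It had 476 counts there, 13 CPM, against 2 counts, 0.0234 CPM, in VE IVM. VE monocytes had 134 counts, 3.54 CPM, and WT monocytes 2 counts. Both microglia libraries had 0 counts, which allows up to 0.0921 CPM in VE and 0.0656 CPM in WT microglia. Ms4a1 was 555-fold lower in VE IVM (153 to 4594, on 2 VE counts) and 41.8-fold higher in VE monocytes (11.4 to 349, on 2 WT counts). The library with the most Ms4a1 had 0 counts of Cd79a, Pax5 and Fcmr and 13 counts of Cd79b. The T and NK cell markers above were highest in that same library, and their part in the Ms4a1 value was not tested.

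Fcmr (chromosome 1, 130865669 to 130880791, plus strand) had 77 counts, 2.04 CPM, in VE monocytes and 10 counts, 0.424 CPM, in WT monocytes, 4.81-fold higher (2.48 to 10.4). At most 3 counts were found in any other library. Ebf1 (chromosome 11, 44617317 to 45008091, plus strand) had 43 counts, 1.14 CPM, in VE and 6 counts in WT monocytes, 4.48-fold higher (1.90 to 12.9). It had 19 counts in VE and 2 in WT IVM (4.08-fold, 0.983 to 36.1, which includes equality), and 3 in VE and 0 in WT microglia. Pax5 (chromosome 4, 44524757 to 44710487, minus strand) had 6 counts in VE and 13 in WT monocytes, 3.47-fold lower (1.23 to 11.1), and 0 counts in the other 4 libraries. The lineage factors Ebf1 and Pax5 were thus at 1.14 CPM or less in every library, those with the highest Ighm included.

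Counted together, 5 of the 9 genes reached 10 CPM in a monocyte library, 4 in an IVM library and 4 in a microglia library. By a size rule of at least 4-fold and 10 CPM in the higher library, Cd79a and Igkc were higher in VE monocytes and none was lower. In that comparison 6.37% of 8377 genes were called higher and 0.609% lower. In VE IVM, Cd79b was higher and Ms4a1 and Igkc were lower, where 16.5% of 9565 genes were called higher and 13.1% lower. In VE microglia Igkc was lower and none was higher, against 2.83% of 8798 genes higher and 4.64% lower. The median log2 ratio of the members at 10 CPM was 1.44 in monocytes, -2.99 in IVM and 0.31 in microglia, and that of all genes so measured was 0.05, -0.13 and 0.12. The member medians rest on 5, 4 and 4 genes. In IVM these genes lay far apart: Ms4a1 at -7.56, Igkc at -6.30, Ighm at 0.32 and Cd79b at 6.04. Their median is thus the level of none of them. Cd79a (6.92) and Ighd (6.09), both higher in VE IVM but below 10 CPM, were not in it. With a minimum of 1 CPM, 4 of the 9 were higher in VE monocytes and 0 lower, where 9.17% of genes were higher and 3.41% lower. In VE IVM 3 were higher and 2 lower (26.8% and 15.2% of genes), and in VE microglia 0 were higher and 1 lower (4.87% and 5.69%). With library size scaling the median of all genes moved to -0.58 in monocytes and -0.62 in microglia, with 242 genes higher and 184 lower in monocytes (main 534 and 51) and 87 higher and 1437 lower in microglia (main 249 and 408). On TPM it moved to 1.17 in IVM, with 2688 higher and 537 lower (main 1579 and 1256), and to -0.73 in monocytes, with 178 higher and 237 lower. The calls of Cd79a and Igkc in monocytes and of Igkc in microglia held under both.

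**Figure D3:**
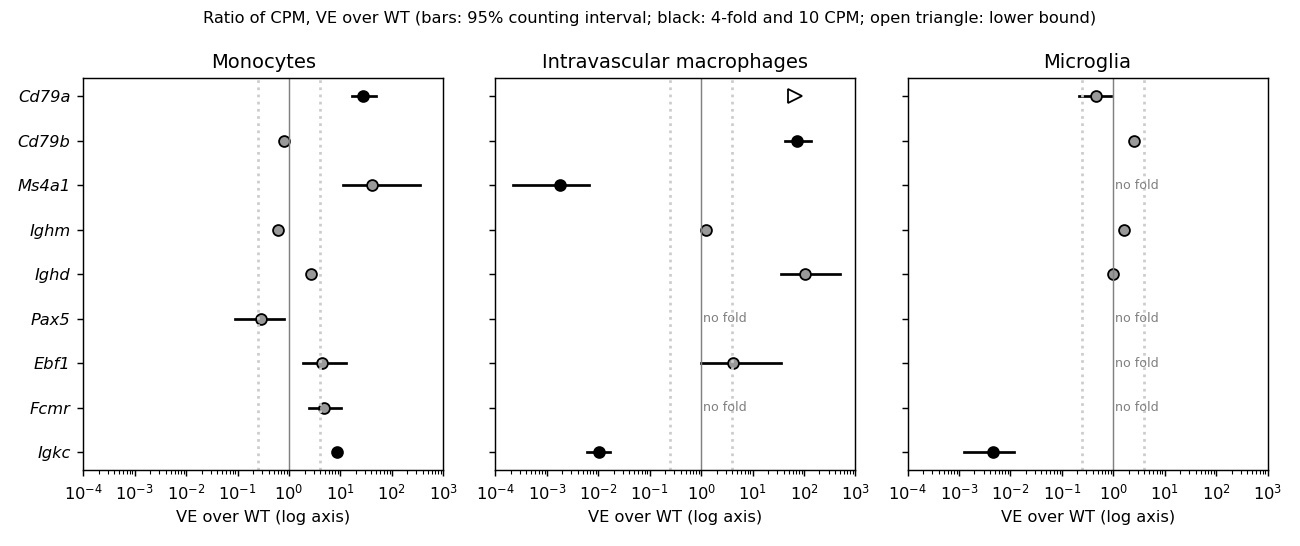
Ratio of VE to WT CPM for each gene in the 3 cell types, on a log axis, with equality as a solid line and 4-fold as dotted lines. Bars are 95% counting intervals, black points pass the size rule, and the open triangle is a lower bound against 3 counts. Igkc lies right of equality in monocytes and left of it in IVM and microglia; Ms4a1 lies on opposite sides in monocytes and IVM.

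Between cell types, no B cell gene passed the test. edgeR's quasi-likelihood test on the 6 libraries, with genotype as a term, called 0 of the 8 genes tested in each comparison at an adjusted p of 0.05. Pax5 had too few counts to be tested. In IVM against monocytes 0.27% of 17023 genes were called higher and 0.241% lower. The lowest adjusted p of a member was 0.165, for Igkc (log2 fold change -9.21). An unadjusted p below 0.05 was found for 2 members and for 8.38% of all genes tested. DESeq2 called 2, Igkc and Fcmr, both lower, where it called 2.34% of genes higher and 2.9% lower. In microglia against monocytes, with 1.76% of genes called higher and 3.23% lower, the lowest was 0.0653, again for Igkc (-8.96). There 2 members and 17.2% of all genes had an unadjusted p below 0.05. DESeq2 called 2, Igkc and Ms4a1, both lower, against 5.83% of genes higher and 8.34% lower. In IVM against microglia, with 1.25% higher and 0.0411% lower, the lowest was 0.481, for Ighd (-4.23). There 4 members and 7.21% of all genes had an unadjusted p below 0.05. DESeq2 called Ms4a1 higher, against 4.77% of genes higher and 0.897% lower. A gene that differs between VE and WT in 1 cell type only counts as spread in this fit, which has 2 residual degrees of freedom.

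The CPM of both libraries of a cell type lay on 1 side of both libraries of another for several of the 8 genes tested, as they did for many genes of the table. In microglia against monocytes, Cd79b, Ighm and Ighd lay above (32.9% of genes tested) and Ms4a1, Ebf1, Fcmr and Igkc below (29.2%). The counting intervals lay apart for Cd79b, Ighm and Igkc. They overlapped for Ighd, Ms4a1, Ebf1 and Fcmr, which are therefore not ordered. In IVM against monocytes, Ighd, Ebf1, Fcmr and Igkc lay below (22.9%) and none above (20.3%). The intervals lay apart for Fcmr and Igkc and overlapped for Ighd and Ebf1. In IVM against microglia, Cd79b, Ighm and Ighd lay below (22.2%) with intervals apart. Ms4a1 lay above (13.7%) on 2 counts in VE IVM, with intervals that overlap.

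Other genes of B cells were set beside the members from 7 lists of 61 genes. Of 9 other immunoglobulin constant genes, 4 were higher by the size rule in VE monocytes and none was lower. Iglc2 stood at 170 CPM in VE and 11.2 CPM in WT monocytes, and Igha, the IgA heavy chain, at 37.8 CPM in VE and 8.09 CPM in WT monocytes, 4.68-fold higher (4.02 to 5.47). In microglia 1 was lower, Igha, with 1 count in the VE library and 2192 counts, 47.9 CPM, in the WT library. None reached 10 CPM in either IVM library.

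Plasma cells are B cells that secrete antibody. Of 8 plasma cell genes, Mzb1, a chaperone of the IgM assembly, and Sdc1, the surface proteoglycan syndecan 1, were higher by the size rule in VE monocytes, at 11.3 and 14.8 CPM against 0.339 and 0.678 CPM in WT monocytes. Jchain, which links IgM and IgA into polymers, had 11.0 CPM in VE and 2.71 CPM in WT monocytes. In microglia it had 1 count in the VE library and 325 counts in the WT library, the library with the Igha reads, while Mzb1 had 4 counts in VE and 13 in WT microglia. Prdm1 was higher and Sdc1 lower in VE IVM. Tnfrsf17, the receptor BCMA, stood at 34.1 CPM in VE and 14.0 CPM in WT microglia, within 4-fold.

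Of 6 co-receptors of the B cell receptor, 3 were higher by the size rule in VE IVM. Cd22, an inhibitory lectin of B cells, stood at 107 CPM in VE IVM and 0.164 CPM, 6 counts, in WT IVM, and Cd72 at 143 and 15.4 CPM. Cd81, a tetraspanin found on many cell types, stood at 1718 CPM in VE and 204 CPM in WT IVM. Cd72 was also higher in VE microglia, at 68.4 CPM against 8.70 CPM in WT, and Cd81 in VE monocytes, at 59.7 CPM against 5.29 CPM in WT.

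Signalling genes downstream of the receptor were read in every library. Of 9, Btk, Blnk and Bank1 were higher by the size rule in VE IVM, and Blk was among those lower. Bank1, an adaptor of B cells, had 40.6 CPM in VE IVM and 3 counts in WT IVM. Blk, a kinase of B cells that is also found in some T cells, had 2 counts in VE IVM and 2335 counts, 63.8 CPM, in WT IVM, and 0 counts in both microglia libraries. In monocytes 6 of the 9 reached 10 CPM and in microglia 7, and none of these passed the size rule there. Blnk, the adaptor that links Syk to its targets, stood at 496 CPM in VE and 186 CPM in WT microglia.

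Among 10 further transcription factors of the B lineage, 6 reached 10 CPM in monocytes. Of these only Irf4 passed the size rule there, lower in VE at 6.0 CPM against 44.8 CPM in WT. In IVM it was higher, at 12.3 CPM in VE and 0.519 CPM in WT, while Spib, Ikzf3, Foxo1 and Ets1 were lower in VE. None of the 5 at 10 CPM passed in microglia. Pou2af1, a co-activator of immunoglobulin genes, had 41 counts in VE and 15 in WT monocytes, 0 in both IVM libraries, and 0 in VE and 8 in WT microglia. Of 9 precursor genes, the recombination gene Rag1 and the surrogate light chain genes Vpreb2 and Igll1 had 0 counts in all 6 libraries. Vpreb1 and Vpreb3 were read at low levels. Vpreb1 had 43 counts in VE and 40 in WT monocytes, 18 in VE and 4 in WT microglia, and 7 in VE and 0 in WT IVM. Vpreb3 had 93 counts in VE and 13 in WT monocytes, 4.47-fold higher (2.49 to 8.70), and at most 3 in any other library. Dntt and Rag2 had at most 6 counts in a library. Il7r and Lef1, which T cells also express, were lower in VE IVM.

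Of 10 surface genes of mature B cells, only 3 reached 10 CPM in monocytes and 4 in microglia, and none of these passed the size rule there. Below 10 CPM, Fcrl5 was 88.7-fold higher in VE monocytes (15.7 to 3527, on 1 WT count). Tnfrsf13c, Cxcr5 and Fcrla were 8.74-, 6.62- and 6.33-fold higher, on 3, 5 and 7 WT counts, and Fcer2a was 4.19-fold lower (2.15 to 8.65). Cd40 and Fcrl5 were higher in VE IVM, at 14.1 and 47.9 CPM, against 0 counts of both in WT IVM. This makes Cd40 at least 172-fold and Fcrl5 at least 585-fold higher. Fcrl1, a receptor-like protein of B cells, stood at 275 CPM in VE and 95.3 CPM in WT microglia, and Tnfrsf13b, the receptor TACI, at 171 CPM in VE and 111 CPM in WT microglia. Several genes of these lists are expressed by myeloid cells, so the lists are not markers of B cells in these libraries.

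**Figure D4:**
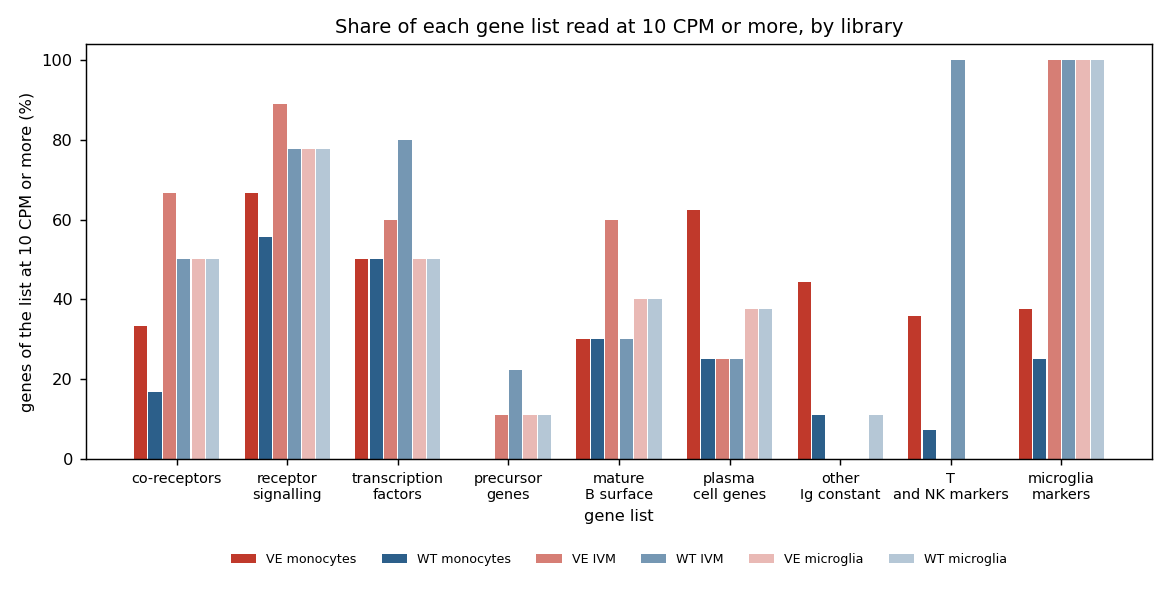
Percentage of the genes of each list at 10 CPM or more (y axis) in each library, VE bars left of WT bars within a cell type and paler from monocytes to IVM to microglia. Signalling genes of the B cell receptor are read at this level in every library, other immunoglobulin constant genes in monocytes and WT microglia, and T and NK cell markers reach 100% in WT IVM alone.

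The genes most alike in pattern were sought by Pearson's r of log2(CPM + 1) over the 6 libraries. The search covered 10060 other genes reaching 10 CPM in a library (10061 for Ebf1). Immunoglobulin genes, Igkc among them, and predicted genes were left out beforehand and so could not be listed. For Cd79a the most alike genes searched were Raet1d (0.98), Lrg1 (0.98), Crispld2 (0.98), Asprv1 (0.98) and Saa3 (0.98), and 26 genes searched exceeded 0.95. These 5 genes were all highest in VE monocytes, and Lrg1 had 129 CPM there and 0.72 CPM in WT monocytes. For Ms4a1 they were Adgrg3 (0.995), Tesc (0.99), Tuba8 (0.99), Krt83 (0.98) and Cd3g (0.98), the last a chain of the T cell receptor complex at 0.187 CPM in VE and 481 CPM in WT IVM. For Ebf1 they were Abhd5, Cdca3, Itgb2l, Ccl6 and Upp1, all at 0.98 or 0.99. With only 6 libraries, which differ in depth and in markers of other blood cells, these values describe the pattern only.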

How the data were processed

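RNA of 6 libraries, 1 per cell type and genotype, was made into cDNA with the SMART-Seq HT kit and into libraries with Nextera XT, per the labels' protocols. The authors deposited raw read counts per gene and TPM, per the file headers. The submitters' processing notes name bcl2fastq 2.20, Trimmomatic 0.37, STAR 2.5.2b, Subread 1.5.2 and build mm10; which annotation was counted, and whether by strand, is not stated there. Of 49315 lines, 176 without a name (0.00507% to 0.0166% of counts) and 26 with a date for a symbol (0.0618% to 0.237%) were left out, and 94 repeated symbols were summed, leaving 49016. The tables hold the same reads: count and TPM were proportional within 1% for 100% of 12714 genes.

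Counts were scaled by TMM in edgeR 4.0.16 (R 4.3.3). Log2 ratios used a prior count of 2. Folds carry exact conditional binomial 95% intervals, and a library at 0 counts is set to a floor of 3 counts. edgeR's quasi-likelihood test was used between cell types, with genotype as a term (filterByExpr, Benjamini-Hochberg adjustment over all genes, threshold 0.05), with DESeq2 1.42.0 as an alternative. The test was run on counts drawn at random with known changes in IVM. Those counts had the same spread for every gene and no genotype differences, unlike these libraries. The run therefore does not show the test's power or error here. The p-values reflect the spread among these libraries. With 1 library per cell type and genotype, that spread holds genotype differences that are not the same in each cell type. Whether the libraries come from different animals is not stated, so the rest of the spread may be technical. Alternatives were other scalings, TPM with a pseudocount of 0.1, a prior count of 0.5, a minimum of 1 CPM or none, no filter, the first line of repeated symbols, no genotype term and each library left out. All 9 members were named. Of each list of other B cell genes, those at 10 CPM with the largest ratios were named, at most 4 per comparison, and of V segments the most abundant per library. Listed genes named with lower levels or smaller ratios were chosen after their values were seen. Antisense genes overlap Ms4a1, Pax5 and Ebf1, with at most 8 counts in a library; Gm30211, which overlaps Igkc, had at most 50. The members and lists were chosen with earlier results of these data known. Some genes of the lists are not reported here by name.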

Additional observations from a re-analysis of the deposited data

Results flagged for a closer look

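Of the B cell genes, 5 differed between VE and WT in opposite directions in different cell types, counting differences whose interval excludes equality. The share of all genes that meet this rule was not computed, so the count does not set these genes apart. The intervals cover counting error only, and at this depth a ratio as small as 1.25-fold, that of Ighm in IVM, excluded equality. Each value is the log2 ratio of 1 VE to 1 WT library. The difference between cell types was not tested. Igkc had a log2 ratio of 3.13 in monocytes, -6.30 in IVM and -7.30 in microglia. Ms4a1 had 4.78 in monocytes, on 2 WT counts, and -7.56 in IVM, on 2 VE counts. Cd79a had 4.70 in monocytes, 6.92 in IVM, where the WT library had 0 counts and the value depends on the prior count, and -1.04 in microglia, on 12 VE and 37 WT counts. Cd79b had -0.35 in monocytes, 6.04 in IVM and 1.36 in microglia. Ighm had -0.73 in monocytes, 0.32 in IVM and 0.66 in microglia, where library size scaling gave 0.04.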

How the results depend on the processing

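Of the genes called by the size rule, none changed direction under any scaling, prior count or TPM. With a minimum of 1 CPM or none, 4 B cell genes were higher in VE monocytes (main 2) and 3 in VE IVM (main 1). In VE IVM, 2 were higher with library size scaling, and on TPM 3 were higher and 1 lower (main 2 lower). Between cell types the main fit called 0 members higher and 0 lower. DESeq2 called 2 lower in IVM against monocytes, 2 lower in microglia against monocytes and 1 higher in IVM against microglia, and without a filter 1 was lower in IVM against monocytes and 1 in microglia against monocytes. Leaving out each library gave 0 to 1 higher and 0 to 4 lower in IVM against monocytes, 0 to 2 higher and 0 to 3 lower in microglia against monocytes, and 0 to 1 higher and 0 to 3 lower in IVM against microglia, with the highest counts without VE IVM (and, in microglia against monocytes, equally without WT IVM). These fits have 1 residual degree of freedom, and the lone library is assumed to vary like the others. Ms4a1 in IVM against monocytes had a log2 fold change of 1.15. It was 7.02 without VE IVM (adjusted p 0.00024 by edgeR's quasi-likelihood test) and -7.04 without WT IVM (0.0371), and the adjusted p ran from 0.00024 to 1 over all settings. The cause of these changes was not tested.

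All-gene counts also moved. By the size rule they ran from 178 to 2392 higher and 51 to 1321 lower in monocytes (main 534 and 51), 1576 to 6631 and 537 to 2420 in IVM (1579 and 1256), and 87 to 1369 and 408 to 1506 in microglia (249 and 408). By the test they ran from 0 to 1771 higher and 0 to 3318 lower in IVM against monocytes (46 and 41), 103 to 2335 and 241 to 2834 in microglia against monocytes (300 and 549), and 90 to 2144 and 0 to 3601 in IVM against microglia (213 and 7). Members at 3 or fewer counts are limited by depth. No paired analysis was possible because each group has 1 library and the labels give no replicate numbers.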
